A study of Mus musculus with 72 samples.

Results

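The MHC class II genes described here are H2-Aa, H2-Ab1, H2-Eb1, H2-DMa, H2-DMb1, Cd74 and Ciita, 7 of the 55573 genes counted in mouse liver and 7 of the 33349 with a count in any library. They were chosen by symbol, and each symbol matched 1 Ensembl gene. Livers came from male C57BL/6 mice that were 10 to 14 weeks old when single housing began and were killed some weeks later. WT mice were Bmal1 fl/fl, with loxP sites around the gene of the clock activator BMAL1, and LKO mice were Bmal1 fl/fl with Albumin-Cre, which acts in hepatocytes. Both genotypes were either SPF, that is, colonized by microbes free of specific pathogens, or GF, that is, germ free in isolators. The GF mice were rederived from the SPF line. Each of the 4 groups (SPF WT, SPF LKO, GF WT, GF LKO) had 18 mice, 3 at each of 6 zeitgeber times (ZT, hours after lights on) from ZT2 to ZT22 in steps of 4 h. Every mouse gave 1 library of liver RNA.

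MHC class II molecules are surface dimers that present peptides from engulfed material to helper T cells. In liver they are carried chiefly by dendritic cells, B cells and macrophages, the resident Kupffer cells among them, and little by hepatocytes, so that a Cre acting in hepatocytes does not delete Bmal1 in most of the cells that present antigen this way. H2-Aa and H2-Ab1 encode the alpha and beta chains of I-A. H2-Eb1 encodes the beta chain of I-E, a dimer that C57BL/6 mice lack because their alpha chain gene is defective. Cd74, the invariant chain, fills the groove of new dimers, and H2-DMa and H2-DMb1 form H2-DM, which exchanges the remnant of that chain for peptides. Ciita is the coactivator that class II promoters depend on. It has no DNA contact of its own and joins the factors RFX and NF-Y on the X and Y boxes, and interferon gamma is its best known inducer. RNA of a whole liver cannot tell fewer class II positive cells from less RNA in each of them.

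The promoters of 2 members are shown because the X and Y boxes through which Ciita acts can be read in them. The stretches come from RefSeq promoters of GRCm38.p6 and run 5′ to 3′ on the strand of the gene, at chr17:34287845-34287926 on the minus strand for H2-Aa and at chr17:34305754-34305834 on the plus strand for H2-Eb1. Capitals mark GNAACT, the start of an X box, and TGATTGG, a Y box.
H2-Aa: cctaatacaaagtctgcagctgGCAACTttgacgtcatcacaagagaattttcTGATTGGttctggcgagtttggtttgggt
H2-Eb1: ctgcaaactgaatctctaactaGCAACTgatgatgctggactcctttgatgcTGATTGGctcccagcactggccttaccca
The boxes began 81 and 50 bases before the start of H2-Aa and 91 and 61 bases before that of H2-Eb1, with 25 and 24 bases between them. These letters were chosen after the stretches had been seen, do not overlap each other, and were searched on both strands of the 250 bases before each gene's start. GNAACT stood in 37.3% of 32851 promoter windows, TGATTGG in 7.23%, and the pair at a distance of 24 to 25 bases in 0.0304%, or 10 windows. That distance was taken from H2-Aa, H2-Eb1 and H2-DMb1, so these members hold the pair by choice of the setting. They and H2-Eb2 were among the 10, as were Drc3, H2bc9 and BC051142, which encode no class II chain. The 2 windows of H2-DMa held neither motif, which says only that these letters are not there. RefSeq windows were at hand for 4 of the 7 members.

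Of the 7 genes, 5 lie within the class II region of chromosome 17 (GRCm38, 34119541 to 34316674), namely H2-DMa, H2-DMb1, H2-Ab1, H2-Aa and H2-Eb1. Cd74 lies on chromosome 18 and Ciita on chromosome 16 (10480059 to 10528418). Reads were counted without regard to strand, and those that overlapped more than 1 gene or aligned to several places were left out, so values are uncertain for H2-DMa, whose exons overlap Brd2, for Ciita, whose exons overlap Dexi, and for H2-DMb1, which has the near copy H2-DMb2. Ciita is transcribed from several promoters used by different cell types, and counts per gene do not separate them.

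Libraries held 17369927 to 22076113 counts (median 19106725). Albumin, apolipoproteins and the other markers in a list of 10 hepatocyte genes summed to between 47457 and 178905 CPM (counts scaled to a common library total with TMM factors), as against 206 to 770 CPM for 12 Kupffer cell markers, so the tissue matched its label. The Kupffer cell marker Clec4f was at 39.5 CPM or more in every library, whereas the T cell marker Cd3e was at 0 in at least 1 library. In 4 libraries a clock gene stood apart from the other libraries of the same label, and these are called the 4 libraries against their labels. Npas2, which was higher in LKO than in WT livers, stood at 0.220 CPM where the label was SPF LKO ZT14 replicate 2 (24.8 in its group mates of that ZT) and at 1.81 CPM where it was SPF LKO ZT18 replicate 1 (32.1 in its mates). Arntl, the gene of BMAL1, stood at 2.12 CPM where the label was SPF WT ZT14 replicate 3 (17.7 in its mates) and at 8.19 CPM where it was GF WT ZT6 replicate 3 (2.03 in its mates). In these last libraries Npas2 was low, at 0.207 and 0.115 CPM, as in the other WT livers of their ZT (0.105 and 0.274 CPM), so that only Arntl stood apart there.

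One further library stood apart in the class II genes themselves. In SPF WT ZT6 replicate 3 all 7 members had their highest value of all 72 libraries. H2-Aa was at 195 CPM there against 40.3 and 45.9 CPM in the other 2 SPF WT livers of ZT6, Cd74 at 258 CPM against 60.7 and 70.8 CPM, and Ciita at 10.1 CPM against 1.40 and 1.36 CPM. Relative to the median of the other 71 libraries, the excess ran from 4.06-fold (H2-DMa) to 5.05-fold (H2-Eb1) in 6 members and reached 7.26-fold for Ciita. All 15 genes of a list of interferon gamma targets were higher there than in any other library, with a sum of 2224 CPM against a median of 615 and a highest of 965 CPM in the rest. So were 12 of 14 T and NK cell markers (sum 45.3 CPM, highest elsewhere 12.6), 11 of 12 Kupffer cell markers (770 and 542), 9 of 10 monocyte markers (60.4 and 29), 7 of 12 dendritic cell markers (36.2 and 23.6) and 8 of 8 pan-leukocyte genes (283 and 184). Its hepatocyte sum ranked 34 of 72. The part of these cells and of interferon in its class II values was not tested. The pair comparisons, the interaction and the rhythms of the members are given with and without it.

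**Figure D1:**
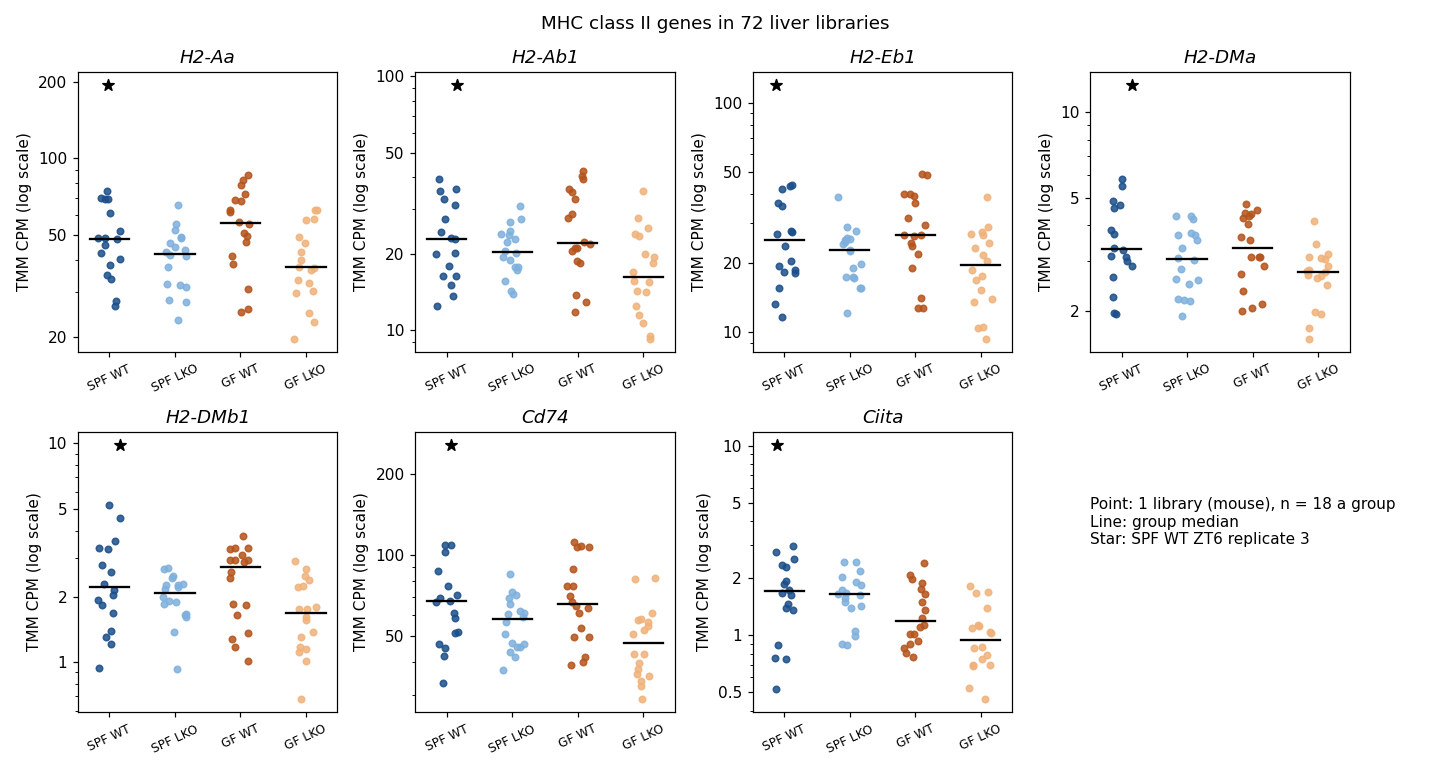
TMM-scaled CPM (log axis) of the 7 MHC class II genes in every liver library, 18 a group, with the group median as a line. The star is SPF WT ZT6 replicate 3, the highest library in all 7 panels, at 195 CPM for H2-Aa and 10.1 CPM for Ciita, and the point clouds of the 4 groups overlap.

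Levels between genes were compared as CPM per kilobase of exon. The length was that of all annotated exons of a gene, 3798 bases for H2-Aa and 1944 for H2-Eb1. It need not be that of the RNA made, so orders that rest on it are uncertain. Before division, over the 71 libraries other than SPF WT ZT6 replicate 3, H2-Aa had a median of 45.1 CPM and H2-Eb1 of 23.8 CPM. H2-DMa then had 3.07 CPM and H2-DMb1 2.04 CPM. Cd74 was the most abundant member, with a median of 34.5 CPM per kilobase over the 72 libraries. H2-Eb1 (12.3) and H2-Aa (12) followed and could not be ranked, since H2-Eb1 was the higher in 37 of 72 libraries. H2-Ab1 came next at 8.0, below H2-Aa in 72 of 72 libraries. The chains of H2-DM were scarcer, at 1.24 for H2-DMb1 and 0.891 for H2-DMa, and in 62 of 72 libraries H2-DMb1 was the higher. Ciita was the lowest at 0.147 CPM per kilobase and had 8 to 215 counts a library. RNA of H2-Eb1, the beta chain gene of I-E, was thus present in every library, at 183 counts or more. H2-Ea-ps, the alpha chain gene of I-E, had 0 counts in 72 of 72 libraries. That allows at most 0.118 to 0.196 CPM (3 counts, counting error alone). Of the less common chains, H2-Ob had group medians of 0.363 to 0.697 CPM and H2-DMb2 of 0.111 to 0.302 CPM.

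Class II transcripts were lower without the liver clock in germ-free mice. Between GF LKO and GF WT livers, 6 of the 7 genes fell at an adjusted p under 0.05 (quasi-likelihood test of edgeR, Benjamini-Hochberg adjusted over all 12662 genes tested), and no gene rose. Over all genes, 15.2% fell and 15.6% rose in this comparison, and the median log2 fold change was 0.01. The fall was of like size in the dimer chains, the invariant chain and the peptide editor, to between 0.696 and 0.80 of the GF WT level.

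Cd74 ranged from 38.9 to 112 CPM (median 65.5) over the GF WT livers and from 29 to 82.2 CPM (median 46.8) over the GF LKO livers. Its log2 fold change was -0.52 (SE 0.15, adjusted p = 0.00674). H2-Aa, the I-A alpha chain, ranged from 25 to 86.1 CPM (median 55.9) in GF WT and from 19.6 to 62.9 CPM (median 37.4) in GF LKO livers. The ranges overlapped, but the upper end and the middle of both genes were lower in GF LKO mice. H2-Aa fell by 0.46 on the log2 scale (SE 0.16, adjusted p = 0.0263 by edgeR). H2-Ab1, the I-A beta chain, ranged from 11.8 to 42.4 CPM (median 22.0) and from 9.26 to 35.4 CPM (median 16.2), with a log2 fold change of -0.52 (SE 0.18, adjusted p = 0.0224). H2-Eb1, the orphan I-E beta chain, ranged from 12.7 to 48.8 CPM (median 26.6) and from 9.35 to 38.7 CPM (median 19.5), with a log2 fold change of -0.52 (SE 0.18, adjusted p = 0.0277). All of these ranges overlapped between the genotypes.

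Both chains of the peptide editor were among the genes that fell, closer to the threshold. H2-DMa ranged from 1.99 to 4.76 CPM (median 3.31) in GF WT and from 1.59 to 4.14 CPM (median 2.74) in GF LKO livers, and its log2 fold change was -0.32 (SE 0.12, adjusted p = 0.0456). H2-DMb1 ranged from 1.01 to 3.77 CPM (median 2.73) and from 0.680 to 2.90 CPM (median 1.69), and its log2 fold change was -0.48 (SE 0.18, adjusted p = 0.0369). Ciita did not pass. It ranged from 0.769 to 2.41 CPM (median 1.18) in GF WT and from 0.461 to 1.81 CPM (median 0.950) in GF LKO livers, with a log2 fold change of -0.41 (SE 0.18, adjusted p = 0.0742).

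How firm these calls were differed by gene. H2-Aa, H2-Ab1 and Cd74 passed whichever of the 36 libraries was left out. H2-Eb1 did not pass without GF WT ZT14 replicate 2 (adjusted p = 0.0531 by edgeR). H2-DMb1 was lost without any 1 of 15 libraries (adjusted p 0.0505 to 0.0624), namely GF WT ZT2 replicates 2 and 3, ZT6 replicate 1, ZT10 replicate 2, ZT14 replicate 2, ZT18 replicate 3 and ZT22 replicates 1 and 3, and GF LKO ZT2 replicates 1 and 2, ZT6 replicate 1, ZT10 replicates 2 and 3 and ZT14 replicates 2 and 3. H2-DMa was lost without any 1 of 20 (adjusted p 0.0511 to 0.0736), namely GF WT ZT2 replicates 2 and 3, ZT6 replicates 1 and 2, ZT10 replicates 1 and 2, ZT14 replicate 2, ZT18 replicate 3 and ZT22 replicate 3, and GF LKO ZT2 replicates 1 and 2, ZT6 replicates 1 and 3, ZT10 replicates 2 and 3, ZT14 replicates 2 and 3, ZT18 replicates 2 and 3 and ZT22 replicate 2. Ciita passed without GF LKO ZT2 replicate 3 (adjusted p = 0.0410), ZT18 replicate 1 (0.0410) or ZT22 replicate 1 (0.0344). H2-DMa and H2-DMb1 also did not pass when no filter on low counts was used, nor H2-DMa with ZT as a term. Without the 4 libraries against their labels, the same 6 genes passed (adjusted p 0.00513 to 0.0457).

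In SPF mice the genotype comparison pointed the same way for every member, and none passed. Log2 fold changes of SPF LKO against SPF WT were -0.47 for H2-Aa, -0.40 for H2-Ab1, -0.49 for H2-Eb1, -0.39 for H2-DMa, -0.52 for H2-DMb1, -0.47 for Cd74 and -0.42 for Ciita, with adjusted p from 0.0571 (Cd74) to 0.246 (Ciita) by edgeR. Over all genes 23.1% were called, 11.5% lower. At an unadjusted p under 0.05, 6 of the 7 passed, as did 4583 of the 13159 genes tested. The members vary together, so these 6 are not independent. DESeq2 called Cd74 (adjusted p = 0.0476).

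The values show how much of this rested on SPF WT ZT6 replicate 3. Cd74 ranged from 33.3 to 258 CPM (median 67.1) in SPF WT livers, or to 109 CPM without that library, and from 37.1 to 85.1 CPM (median 57.7) in SPF LKO livers. H2-Aa ranged from 26.3 to 195 CPM (median 48.4), or to 74.4 CPM without it, against 23.2 to 65.7 CPM (median 42.3). Apart from 1 liver, then, the groups spanned much the same values. H2-Ab1 (12.5 to 92.9 CPM, median 22.9, or to 39.6 without it, against 13.9 to 30.8, median 20.3) and H2-Eb1 (11.6 to 120 CPM, median 25.3, or to 43.8 without it, against 12.1 to 38.8, median 22.7) overlapped likewise. H2-DMa (1.94 to 12.5 CPM, median 3.30, or to 5.83 without it, against 1.92 to 4.32, median 3.04), H2-DMb1 (0.944 to 9.86 CPM, median 2.21, or to 5.22 without it, against 0.934 to 2.71, median 2.09) and Ciita (0.520 to 10.1 CPM, median 1.71, or to 2.97 without it, against 0.885 to 2.43, median 1.65) overlapped as well. With that library left out, the log2 fold changes shrank to -0.24 for H2-Aa, -0.18 for H2-Ab1, -0.23 for H2-Eb1, -0.20 for H2-DMa, -0.30 for H2-DMb1, -0.25 for Cd74 and -0.06 for Ciita (adjusted p 0.175 to 0.851), while 22.0% of all genes were then called.

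Leaving out other libraries moved some members past the threshold. Cd74 passed without SPF WT ZT2 replicate 3 (adjusted p = 0.0469 by edgeR), ZT10 replicates 1 (0.0434) or 3 (0.0409), ZT14 replicate 2 (0.0381), ZT18 replicate 2 (0.0303) or ZT22 replicate 2 (0.0460), or without SPF LKO ZT18 replicates 1 (0.0479) or 3 (0.0400). H2-Aa passed without SPF WT ZT10 replicate 3 (0.0489), ZT14 replicate 2 (0.0388) or ZT18 replicate 2 (0.0407) or SPF LKO ZT18 replicate 3 (0.0420), and H2-DMb1 without SPF WT ZT14 replicate 2 (0.0420) or ZT18 replicate 2 (0.0499).

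A call in GF mice and none in SPF mice is not a difference between them, and the difference itself was tested over all 72 libraries. None of the 7 members passed in this test of genotype by microbiota, in which 0.438% of all genes were called. The genotype effect in GF mice minus that in SPF mice was -0.07 on the log2 scale for Cd74 (95% interval -0.54 to 0.41, adjusted p = 0.990 by edgeR) and -0.13 for H2-Ab1 (95% interval -0.64 to 0.38, adjusted p = 0.987). Without SPF WT ZT6 replicate 3 the difference ran from -0.13 (H2-DMa) to -0.35 (Ciita), with adjusted p from 0.947 to 0.990. The lower limits of both intervals lie beyond the size of the genotype effects themselves, so a fall in GF mice larger than that in SPF mice by as much as the effect lies within them.

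**Figure D2:**
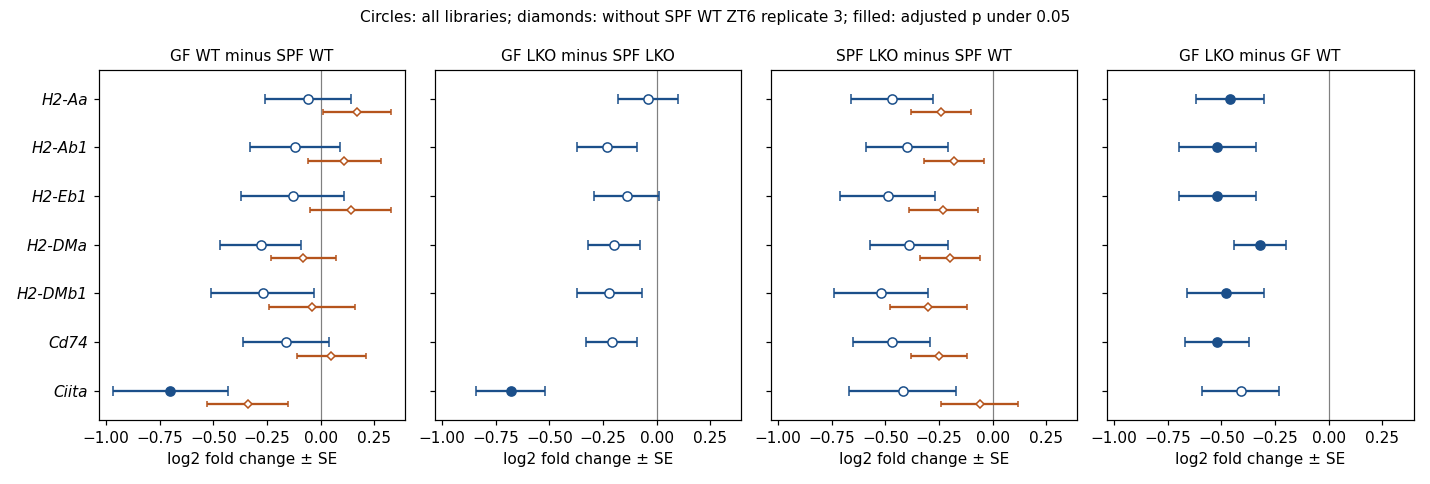
Log2 fold changes with their standard errors for the 7 members in the 4 pair comparisons, from edgeR. Circles use all 36 libraries, diamonds leave out SPF WT ZT6 replicate 3, and filled symbols have an adjusted p under 0.05, as 6 members do for GF LKO minus GF WT and Ciita alone for both comparisons of GF minus SPF mice.

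In the comparison of GF with SPF mice the regulator Ciita was the 1 member called, of 7. That is a smaller share than the 17.7% (WT) and 18.4% (LKO) of all genes that fell. The call thus does not set the members apart from other genes. In LKO mice Ciita was lower in GF than in SPF livers, the 1 member called in a comparison in which 36.4% of all genes were called. It ranged from 0.885 to 2.43 CPM (median 1.65) over SPF LKO livers and from 0.461 to 1.81 CPM (median 0.950) over GF LKO livers. The ranges overlapped between 0.885 and 1.81 CPM. The log2 fold change was -0.68 (SE 0.16, adjusted p = 0.00125 by edgeR), and it passed whichever of the 36 libraries was left out (adjusted p 0.000421 to 0.00278) and without the 4 libraries against their labels (-0.72, adjusted p = 0.000869). The other 6 members had log2 fold changes from -0.04 (H2-Aa) to -0.23 (H2-Ab1), with adjusted p from 0.182 to 0.849. For H2-Aa the 95% interval was -0.31 to 0.23 and for Cd74 -0.45 to 0.03. Whether the change of Ciita differed from that of the other members was not tested. H2-Ob, a less common chain and not a member, also fell in GF LKO against SPF LKO livers. Its log2 fold change was -0.92 (SE 0.26, adjusted p = 0.00562 by edgeR).

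In WT mice Ciita was the 1 member called as well, among 31.8% of all genes called and 17.7% that fell, and that call was not stable. Ciita ranged from 0.520 to 10.1 CPM (median 1.71) over SPF WT livers, or to 2.97 CPM without ZT6 replicate 3, and from 0.769 to 2.41 CPM (median 1.18) over GF WT livers. The log2 fold change was -0.70 (SE 0.27, adjusted p = 0.0420 by edgeR) and became -0.34 (adjusted p = 0.193) without that library. The call was also lost, at adjusted p of 0.0511 to 0.0649 and log2 fold changes of -0.65 to -0.69, without any 1 of SPF WT ZT10 replicate 2, ZT14 replicate 3, ZT22 replicates 1 and 3, and GF WT ZT2 replicates 1 and 3, ZT6 replicates 1 and 2, ZT14 replicates 1 and 3, ZT18 replicates 1 and 2 and ZT22 replicates 1 and 2. The other 6 members had log2 fold changes of -0.06 (H2-Aa) to -0.28 (H2-DMa), with adjusted p from 0.255 to 0.856. Without SPF WT ZT6 replicate 3 the sign turned for H2-Aa (0.17), H2-Ab1 (0.11), H2-Eb1 (0.14) and Cd74 (0.05), H2-DMa and H2-DMb1 stood at -0.08 and -0.04, and 28.6% of all genes were called. Group means of H2-Aa were then 48.9 ± 15.2 CPM (SD, n = 17) in SPF WT and 55.6 ± 18.7 CPM (SD, n = 18) in GF WT livers.

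No member had a 24 h rhythm past the threshold in any group. A cosine with a period of 24 h was fitted to the 18 libraries of each group, and 0 of 7 members passed in SPF WT, SPF LKO, GF WT or GF LKO mice, also at an unadjusted p under 0.05, where 15%, 21.2%, 26.7% and 35% of all genes were called. The lowest adjusted p by edgeR was 0.392, 0.180, 0.508 and 0.163 in that order. Fitted amplitudes in SPF WT livers were 0.30 to 0.44 on the log2 scale, with peaks between ZT 5.07 and 5.93, near the ZT of the library that stood apart. Without it they were 0.02 to 0.25. In the other groups amplitudes were 0.07 to 0.32 (SPF LKO), 0.07 to 0.25 (GF WT) and 0.12 to 0.35 (GF LKO).

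The largest swing outside SPF WT mice was that of the beta chain H2-Ab1 and of H2-DMb1 in GF LKO livers, both with an amplitude of 0.35 and with peaks at ZT 22.9 and 22.1 (adjusted p = 0.163 and 0.191 by edgeR). With no filter on low counts, H2-Ab1 (adjusted p = 0.0128) and H2-Aa (adjusted p = 0.0477) did pass in that group. Differences in rhythm between groups were tested in the same way, and 0 of 7 members passed, also unadjusted, for microbiota in WT (0.0470% of all genes called), microbiota in LKO (5.34%), genotype in SPF (1.12%) and genotype in GF mice (6.38%), with lowest adjusted p of 0.762, 0.359, 0.556 and 0.526. It was 0.778 for microbiota in WT and 0.665 for genotype in SPF mice when SPF WT ZT6 replicate 3 was left out.

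Comparisons within a single ZT, with 3 livers a group, called 0 of the 42 combinations of member and ZT in each of the 4 pair comparisons by edgeR. At an unadjusted p under 0.05 there were 6 for microbiota in WT, 2 for microbiota in LKO, 8 for genotype in SPF and 8 for genotype in GF mice. Of all genes, 1958 of 13317 (ZT14) to 3740 of 13596 (ZT2) passed unadjusted for microbiota in WT. For microbiota in LKO it was 1909 of 13442 (ZT10) to 3640 of 13596 (ZT2). For genotype it was 1413 of 13326 (ZT18) to 3350 of 13442 (ZT10) in SPF mice. In GF mice it was 1963 of 13576 (ZT22) to 3421 of 13609 (ZT6). No share of the members exceeded the highest of these. At the adjusted threshold, 2.89%, 2.71%, 4.92% and 7.99% were called over all genes and ZT. DESeq2 called 1, Ciita at ZT6 between GF WT and SPF WT (log2 fold change -1.89, adjusted p = 0.0337), which includes the library that stood apart.

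By the sign of the estimate alone, 40 of 42 combinations were lower in LKO livers for genotype in GF mice. In SPF mice 32 of 42 were lower. The members were measured in the same livers and vary together, so these combinations are not independent. Over all genes, the median log2 fold change for genotype in GF mice lay between -0.01 (ZT2) and 0.03 (ZT18). The fold was deepest at ZT10 in GF mice for all 7 members. H2-Ab1 stood at 42.4, 36.1 and 11.8 CPM in the GF WT livers of ZT10 and at 19.4, 9.51 and 9.26 CPM in the GF LKO livers, a log2 fold change of -1.24 (SE 0.42, adjusted p = 0.0683). Cd74 stood at 108, 88.8 and 39.9 CPM and at 54.3, 29 and 32.4 CPM (-1.03, SE 0.37, adjusted p = 0.0928). Of the 3 GF WT livers, 2 exceeded all GF LKO livers in both genes, and replicate 3 fell among them.

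In SPF mice the deepest fold was at ZT6 for all members but Ciita, from -1.05 to -1.30, the ZT of the library that stood apart. Without that library these 6 folds lay between -0.25 (H2-DMa) and 0.04 (H2-Ab1), and Ciita stood at 0.33. For Ciita it was at ZT14, at 2.30, 1.94 and 2.74 CPM in SPF WT and 0.897, 0.989 and 0.885 CPM in SPF LKO livers. These values did not overlap, with a log2 fold change of -1.34 (SE 0.32, adjusted p = 0.200), and 0% of all genes were called there. The libraries labelled SPF WT ZT14 replicate 3 and SPF LKO ZT14 replicate 2, both among the 4 against their labels, are 2 of these 6. Without the 4 libraries, Ciita stood at -1.25 (SE 0.41, adjusted p = 0.111 by edgeR) and 743 genes were called at ZT14, as were 532 with no filter and 136 with DESeq2.

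**Figure D3:**
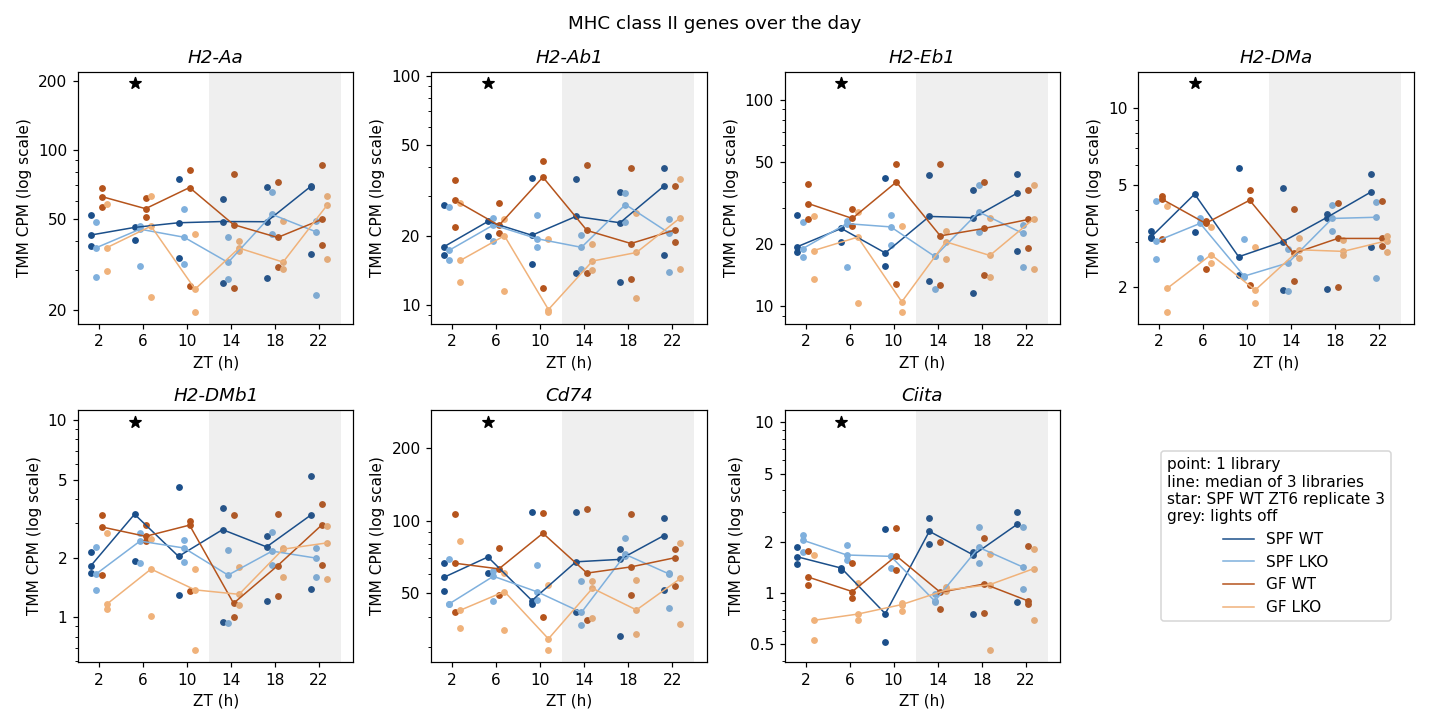
TMM-scaled CPM (log axis) of the 7 members at each ZT, with a point for each library, a line through the median of 3 libraries of each group and grey where lights were off. The star is SPF WT ZT6 replicate 3, and in GF LKO mice the median of the class II chains is lowest at ZT10, where H2-Ab1 stood at 19.4, 9.51 and 9.26 CPM.

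Much of the variance of the members lay among mice of the same group and ZT, as it would without any effect of group or ZT. Shares are of summed squares and not adjusted for there being more mice than groups or times, so they do not rank these sources. With SPF WT ZT6 replicate 3 left out, 53.8% (Ciita) to 72.9% (H2-Eb1) of the variance of log2 CPM lay among mice of one group and ZT, 13% to 24.8% among ZT within groups and 10.9% to 21.4% among groups. The highest of these 71 libraries exceeded the lowest by 3.68-fold (H2-DMa) to 7.68-fold (H2-DMb1).

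This variation was shared by the members. Across the 21 pairs of members, Pearson's r of log2 CPM was 0.64 to 0.97 over 72 libraries (median 0.87) and 0.54 to 0.96 without SPF WT ZT6 replicate 3. The 15 pairs without Ciita reached 0.84 to 0.97, and the 6 pairs with Ciita 0.64 to 0.76. Ciita had the lowest median count of the members, 28.5 a library against 42 for H2-DMb1. The part of low counts in its correlations was not tested. Within group and ZT, without that library, r was 0.70 to 0.97 (median 0.86). Genes of a library share its depth and its mix of cells, and these correlations are a description.

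With the members themselves left out, the genes whose pattern was most like the mean of H2-Aa, H2-Ab1 and H2-Eb1, among the 11840 genes whose log2 CPM averaged 0 or more, were BC023105 (r = 0.84 over 72 libraries, 0.80 over 71), Igtp (0.83, 0.78), Cxcl9 (0.82, 0.77), Gbp2 (0.81, 0.75), Tgtp1 (0.80, 0.74), Gbp3 (0.79, 0.73), Gbp2b (0.79, 0.76), Ctss (0.78, 0.72), Gm12250 (0.78, 0.72) and Tgtp2 (0.76, 0.70). Over these genes the 5th and 95th percentiles of r were -0.27 and 0.31. Igtp, Tgtp1, Tgtp2 and the Gbp genes encode GTPases that interferon gamma induces, Cxcl9 encodes a T cell chemokine that it induces, and Ctss encodes the protease that trims the invariant chain. Exons of Igtp, Tgtp1 and Gbp2 overlap those of other genes and these families hold near copies, so their counts are uncertain. Within group and ZT the highest were BC023105 (0.86), Gbp4 (0.85), H2-Q4 (0.83), Gbp2b (0.83) and Igtp (0.82).

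Of the gene lists, 15 interferon gamma targets had a median r of 0.66 with the class II chains over 71 libraries, and 15 of 15 exceeded 0.27, the 95th percentile of all genes there. Igtp, Cxcl9, Gbp2, Tgtp1, Gbp3 and Tgtp2 of this list are also among the most alike genes above, so this repeats them in part. For 12 Kupffer cell markers the median r was 0.48 (10 of 12 over 0.27), for 8 pan-leukocyte genes 0.46 (7 of 8) and for 4 monocyte markers 0.39 (3 of 4). It was 0.11 for 3 dendritic cell markers, 0.08 for liver endothelium, -0.04 for stellate cells and -0.02 for hepatocytes. Single libraries followed this in part. SPF WT ZT6 replicate 3 had 409 CPM of the 3 chains, 2224 CPM of interferon gamma targets and 770 CPM of Kupffer cell markers, while GF LKO ZT10 replicate 2, the library with the lowest sum of chains, had 38.5, 464 and 309 CPM. Others departed from it, as GF WT ZT14 replicate 2 had 168 CPM of chains but 597 CPM of interferon gamma targets, below the median of the libraries, and GF LKO ZT6 replicate 1 had 44.7 CPM of chains but 736 CPM of targets.

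**Figure D4:**
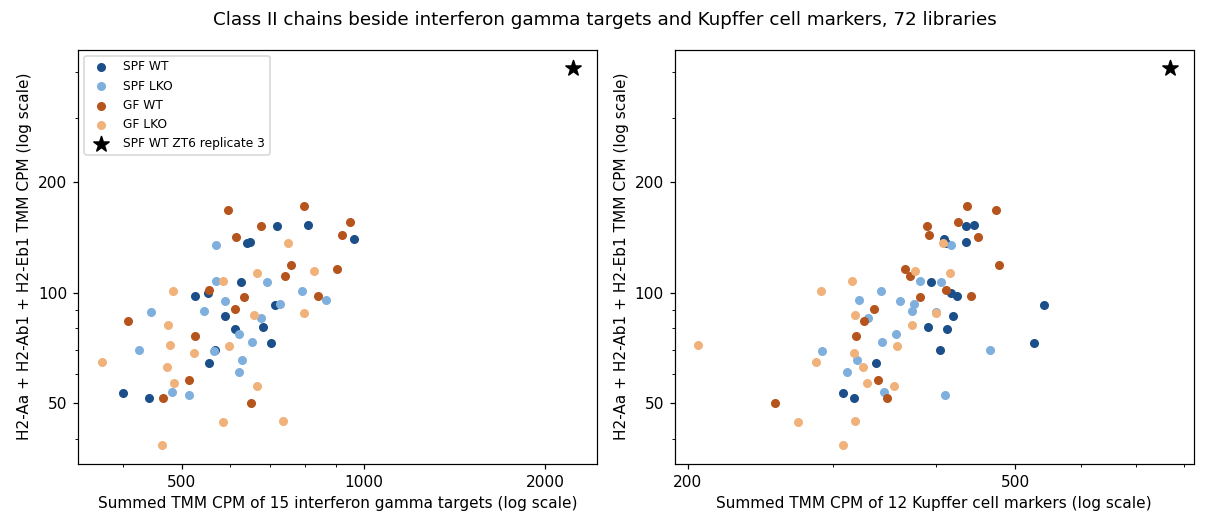
Summed TMM CPM of H2-Aa, H2-Ab1 and H2-Eb1 against the summed TMM CPM of 15 interferon gamma targets (left) and 12 Kupffer cell markers (right), with 1 point per library and log axes. The points scatter about a rise from GF LKO ZT10 replicate 2 (38.5 CPM of chains) to SPF WT ZT6 replicate 3 (409 CPM of chains), with exceptions such as GF WT ZT14 replicate 2 (168 CPM of chains, 597 CPM of targets).

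Other genes of the pathway moved with the members in part. The counts of this and all later lists are to be read beside the shares of all genes. For microbiota, 14.2% of all genes rose and 17.7% fell in WT mice, and 18.1% rose and 18.4% fell in LKO mice. For genotype, 11.6% rose and 11.5% fell in SPF mice, and 15.6% rose and 15.2% fell in GF mice. Among the 15 interferon gamma targets, 8 fell and 0 rose in GF LKO against GF WT livers (median log2 fold change -0.42), and 8 fell and 0 rose in SPF LKO against SPF WT livers (median -0.53), a number that dropped to 1 (median -0.26) without SPF WT ZT6 replicate 3 and to 3 without the 4 libraries against their labels. Nlrc5, the class I counterpart of Ciita, had a log2 fold change of -0.77 in GF (adjusted p = 5.84e-07 by edgeR) and -0.76 in SPF mice (0.000214). Nlrc5 stood at -0.65 in SPF mice without SPF WT ZT6 replicate 3 (0.000304). Igtp changed by -0.84 and -0.75 (0.000180 and 0.0276), Gbp3 by -0.65 and -0.53 (2.21e-05 and 0.0439), and Psmb8, an immunoproteasome subunit, by -0.42 in GF mice (0.00106). In SPF mice neither Igtp nor Gbp3 passed without SPF WT ZT6 replicate 3 (-0.33 and -0.26, adjusted p = 0.129 and 0.141) or without the 4 libraries (-0.67 and -0.46, adjusted p = 0.0575 and 0.0898). For the microbiota, 2 of the 15 fell in WT mice (1 fell and 1 rose without SPF WT ZT6 replicate 3) and 1 in LKO mice, and Nlrc5 changed by -0.47 in both (adjusted p = 0.00983 and 0.00298) and by -0.35 in WT mice without that library (0.0239).

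Some markers of the cells that carry class II were also called. Of 12 Kupffer cell markers, 5 fell in GF LKO against GF WT livers (3 without the 4 libraries against their labels) and 0 rose, with medians of summed CPM of 322 (range 206 to 416) against 387 (255 to 478). In SPF mice 6 fell, 2 without SPF WT ZT6 replicate 3 and 7 without the 4 libraries, with medians of 360 (291 to 466) and 416 (309 to 770). GF against SPF mice showed 2 of 12 lower in WT (1 without SPF WT ZT6 replicate 3 and 3 without the 4 libraries) and 3 of 12 in LKO. These counts were near the shares of all genes that fell, 17.7% in WT and 18.4% in LKO mice. Of 12 dendritic cell markers 3 to 6 were high enough to be tested, and 2 fell in GF against SPF livers of either genotype, among them Clec9a (-1.11 in WT and -0.77 in LKO mice, adjusted p = 6.09e-05 and 0.00105), whose exons overlap Clec1b. It stood at -0.96 in WT mice without SPF WT ZT6 replicate 3. For genotype, with all libraries, 1 of 3 dendritic markers tested rose and 1 fell in GF mice, and 1 of 6 rose and 2 fell in SPF mice. Zbtb46 was the marker that rose (0.26 in GF and 0.28 in SPF mice, adjusted p = 0.0223 and 0.0224 by edgeR). Cd207 fell (-0.55 in GF and -0.70 in SPF mice, adjusted p = 0.00277 and 0.00183 by edgeR). Itgax fell in SPF mice (-1.13, adjusted p = 0.0318 by edgeR). It stood at 7.60 CPM in SPF WT ZT6 replicate 3 and at most at 1.11 CPM in any other library. The dendritic sums had medians of 19.6 (SPF WT), 17.8 (SPF LKO), 15.1 (GF WT) and 14.2 CPM (GF LKO), and the B cell sums 5.42, 5.82, 4.20 and 4.10 CPM. Of 12 B cell genes, 3 (WT) or 4 (LKO) were high enough to be tested, and in GF against SPF livers 2 fell in WT mice (1 without SPF WT ZT6 replicate 3), 1 fell in LKO mice and 0 rose. For genotype 0 B cell genes were called, of 4 tested in SPF and 2 in GF mice. Cd22 changed by -0.97 and -0.90 in GF against SPF livers of WT and LKO mice (adjusted p = 0.00143 and 0.000320), and by -0.79 in WT mice without that library, whereas Cd79b stood at 0.06 and 0.11. The sum of the hepatocyte genes shifted with genotype too, and much of that sum was Alb (albumin). In the 71 libraries other than SPF WT ZT6 replicate 3, Alb had a median of 59689 CPM and the sum of the genes one of 89006 CPM. Their summed CPM had medians of 67435 in GF LKO against 140790 in GF WT livers and of 63972 in SPF LKO against 110726 in SPF WT livers. Alb fell, with log2 fold changes of -1.70 in GF and -0.98 in SPF mice. Of the 10 genes 3 fell and 2 rose in GF mice and 2 fell and 1 rose in SPF mice. The median log2 fold change of the 10 was -0.08 in GF and -0.06 in SPF mice. The part of these cells in the changes of the class II genes was not tested.

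Other lists moved in both directions or in few genes. Among class II regulators, of which 16 or 17 were tested, 0 rose and 4 fell for microbiota in WT, 2 and 5 for microbiota in LKO, 1 and 1 for genotype in SPF, and 3 and 2 for genotype in GF mice. Without SPF WT ZT6 replicate 3 it was 1 and 3 for microbiota in WT, and without the 4 libraries 1 and 6 for microbiota in LKO, 2 and 1 for genotype in SPF and 2 and 2 for genotype in GF mice. Rfxank, a subunit of RFX, was the most changed of them, higher by 0.99 in GF LKO and by 0.98 in SPF LKO livers (adjusted p = 1.90e-08 and 1.87e-07), and it shares exon sequence with Nr2c2ap on the opposite strand. Nfyb, a subunit of NF-Y, changed by -0.25 and -0.22 in GF against SPF livers of WT and LKO mice. Among genes of class II processing, of which 10 or 11 were tested, 2 rose and 3 fell for microbiota in either genotype and 2 rose and 2 fell for genotype in either microbial state. Without SPF WT ZT6 replicate 3, 3 rose and 1 fell for microbiota in WT and 2 rose and 1 fell for genotype in SPF mice, and without the 4 libraries 5 fell for microbiota in LKO mice. Ctsl, a lysosomal protease that hepatocytes also express, rose in all 4 comparisons (0.35 to 0.73), whereas Ifi30, the thiol reductase of antigen processing, fell with loss of the clock in GF (-0.35, adjusted p = 0.000104) and SPF mice (-0.27, adjusted p = 0.0475), the latter not past the threshold without SPF WT ZT6 replicate 3 (-0.16, adjusted p = 0.0829). Of 8 pan-leukocyte genes, 3 fell for microbiota in WT, 2 fell and 1 rose in LKO, 1 fell for genotype in SPF and 0 in GF mice. The numbers that fell were 1 for microbiota in WT and 0 for genotype in SPF mice without SPF WT ZT6 replicate 3, and without the 4 libraries 0 rose in LKO mice.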

How the data were processed

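Liver mRNA of 72 mice was sequenced as single-end reads. The authors deposited raw read counts per gene, made per the labels with STAR 2.6.1b on mm10 and featureCounts 2.0.0. The file gives Ensembl gene identifiers, of which 55394 of 55573 had a name in the GRCm38 annotation used here. No column was left unused and no pair of libraries held identical counts. Groups, ZT and replicate numbers came from the labels. The members and the gene lists were chosen with earlier results of these data known.

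Counts were tested with edgeR 4.0.16 (R 4.3.3): TMM factors, filterByExpr, quasi-likelihood F tests and Benjamini-Hochberg adjustment over all genes at 0.05, on 36 libraries for each pair with ZT pooled, on 72 for the interaction, on 18 for a 24 h cosine and on 12 at each ZT with 4 group means. All 7 members passed the filter in every fit. The cosine stands in for empirical JTK_CYCLE, which was not used here. Fits were tested on simulated counts. Alternatives were DESeq2 1.42.0, RLE size factors, no filter, a replicate block, ZT as a term, any difference among ZT, and leaving out each library, the 4 libraries against their labels or, chosen after seeing the data, SPF WT ZT6 replicate 3. Replicate numbers did not pair mice, since same-numbered libraries of different groups had median correlations of deviations from -0.019 to 0.0201.

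Named were all members, at most 4 genes of a list by smallest adjusted p over the 4 pairs, and the 10 genes most like the class II chains over all libraries and 5 within group and ZT. Depth of 17369927 counts or more gave Ciita as few as 8 counts, so its single values carry the largest counting error. Each library is 1 mouse. The labels give no batch. Analysis used Python 3.11.15 (pandas 2.3.3, scipy 1.17.1).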

Additional observations from a re-analysis of the deposited data

How the results depend on the processing

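Outside the results named here and the counts at single ZT, counts of members and of all genes stayed within 1.5 times. For single members, 490 values kept their direction and their side of the threshold under other settings, 7 lost a call and 3 gained one, and with libraries left out 959 kept both, 51 lost a call and 17 gained one. DESeq2 gave no adjusted p for the rhythm of Ciita in SPF WT mice. For microbiota in WT mice 0 members were called, in place of 1, with no filter, with ZT as a term and without the 4 libraries against their labels, and 0 with a replicate block, a pairing that the numbers do not support. Leaving out single libraries gave 0 to 1 members there, 1 to 1 for microbiota in LKO, 0 to 3 for genotype in SPF and 3 to 7 for genotype in GF mice. DESeq2 called 1 member for genotype in SPF mice, and without a filter 2 members were rhythmic in GF LKO mice. In single ZT, DESeq2 called 1 combination for microbiota in WT, and no filter gave 10 (microbiota in WT), 9 (microbiota in LKO), 14 (genotype in SPF) and 12 (genotype in GF), in place of 0. Leaving out single libraries gave there 0 to 2, 0 to 1, 0 to 3 and 0 to 4. The replicate block changed no other call. The causes were not tested.

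Signs turned for small effects. For microbiota in WT mice H2-Aa became 0.04 and H2-Eb1 0.02 with the replicate block, and without SPF WT ZT6 replicate 3 H2-Aa became 0.17, H2-Ab1 0.11, H2-Eb1 0.14 and Cd74 0.05. With other single libraries left out these 4 genes fell to as low as -0.10, -0.17, -0.19 and -0.21. For microbiota in LKO mice H2-Aa became 0.01 without SPF LKO ZT18 replicate 3 and 0.00 without GF LKO ZT10 replicate 2, with a lowest value of -0.09 over the libraries. For the interaction, H2-Aa became 0.00 with DESeq2 and with RLE size factors, H2-DMa -0.01 and H2-DMb1 -0.08 with the block, H2-DMa -0.13 and H2-DMb1 -0.18 without SPF WT ZT6 replicate 3, and Ciita -0.01 with no filter, -0.17 with the block, -0.04 with ZT as a term, -0.05 without the 4 libraries and -0.35 without SPF WT ZT6 replicate 3.

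Counts over all genes moved by over 1.5 times in some tests of time. Any difference among ZT in place of the cosine called 982 genes in place of 2087 in SPF WT, 744 in place of 2971 in SPF LKO and 1795 in place of 3523 in GF WT mice. Differences in rhythm went from 6 to 42 (DESeq2), 62 (no filter) and 10 (without the 4 libraries) for microbiota in WT, from 695 to 1112 (DESeq2), 101 (block) and 399 (without the 4 libraries) for microbiota in LKO, and from 148 to 285 (DESeq2), 246 (no filter), 63 (block) and 364 (without the 4 libraries) for genotype in SPF mice. Summed over single ZT, calls went from 2334 to 5049 (DESeq2) and 6837 (no filter) for microbiota in WT, from 2194 to 5045 and 6999 for microbiota in LKO, and with no filter from 3979 to 7657 for genotype in SPF and from 6463 to 9895 for genotype in GF mice. Of 24 counts at single ZT, 21 moved by over 1.5 times with no filter, 14 with DESeq2, 8 with the block, 8 without the 4 libraries and 1 with RLE size factors.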

Other observations

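Plasma cell transcripts moved with the microbiota in both directions. Igha, the constant region of immunoglobulin A, fell in GF against SPF livers, with log2 fold changes of -3.15 in WT and -4.71 in LKO mice (adjusted p = 2.06e-06 and 8.93e-13 by edgeR). Ighm, the constant region of immunoglobulin M, rose by 0.81 on the log2 scale in GF against SPF livers of WT mice and by 1.39 in LKO mice (adjusted p = 0.00791 and 7.13e-07 by edgeR). The changes in WT mice were -2.94 for Igha and 0.93 for Ighm without SPF WT ZT6 replicate 3. In GF LKO against GF WT livers, in which 6 class II genes fell, 3 of 4 plasma cell genes tested rose (2 without the 4 libraries against their labels), Jchain by 0.86 among them (adjusted p = 0.000115). Of 10 hepatocyte genes 7 rose in GF against SPF livers of either genotype and 1, Alb, fell in LKO mice (-0.35, adjusted p = 0.0474, and -0.11 without the 4 libraries). Of 10 liver endothelial genes 4 fell and 1 (WT) or 2 (LKO) rose, with 3 lower in WT mice without SPF WT ZT6 replicate 3. Of 6 bile duct genes tested, 1 rose and 1 fell in SPF LKO against SPF WT livers (Sox9 at 1.17, Tspan8 at -0.53, median of the list -0.09), and 2 rose and 0 fell in GF LKO against GF WT livers, Sox9 at 0.78 among them. SPF WT ZT6 replicate 3 also had 38.8 CPM of Saa3, an acute phase gene named after its value was seen, against a median of 2.27 CPM in the other 71 libraries. Other acute phase genes looked at set it apart less. It ranked 4 of 72 for Saa1 (256 CPM) and 2 of 72 for Lcn2 (36.9 CPM). Saa2 was at 241 CPM there and at 226 CPM in SPF WT ZT6 replicate 2.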
